A study of Homo sapiens with 4 samples.

Results

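Transcripts of 29 lysosomal genes were measured in the established human cell lines SW1990 and PANC-1, grown from pancreatic cancers, with and without 10 Gy of X-rays. The genes were chosen by symbol, as the enzymes, membrane proteins, lipid binding proteins and controlling transcription factors best known for the lysosome, and are 29 of the 58174 rows with a gene identifier in the deposited table. They comprise 5 lysosomal membrane proteins, 2 lumenal lipid binding proteins, 9 cathepsins, 8 glycosidases, 3 other hydrolases and the transcription factors TFEB and TFE3. Each line was sequenced as an unirradiated culture and as a culture treated with 10 Gy X-ray, and each of these 4 conditions has 1 library. PANC-1 cells were grown in DMEM and SW1990 cells in a different medium, each with serum, so line and medium cannot be told apart. The passage range was the same for all cultures, and the time from radiation to RNA extraction is not given in the sources used here. Named genes held 17851815 counts without and 18305682 counts with radiation in SW1990 cells. The PANC-1 libraries were deeper, at 23323266 and 20026595 counts.

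Lysosomes are acidic organelles in which cells break down proteins, glycans, lipids and whole organelles delivered by endocytosis and autophagy. A proton pump, the V-ATPase, acidifies the lumen, and most hydrolases reach it through receptors that recognise mannose 6-phosphate. TFEB and TFE3 move to the nucleus when the kinase complex mTORC1 is inactive or the lysosome is stressed, and bind E-boxes of the CLEAR type in the promoters of lysosomal genes. Multivesicular endosomes, from which exosomes are released, can also fuse with the lysosome, where their vesicles are degraded.

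Promoters were searched for these E-boxes because they are the known link between TFEB, TFE3 and the lysosomal genes. RefSeq promoter windows (GRCh38.p14, 250 bases before to 50 bases after a gene's start) were matched for 23 of the 29 genes. CACGTG, which reads the same on both strands, was present in the windows of 7 of the 23 (30.4%), against 8.77% of all 27305 gene symbols with a window. The longer form TCACGTG or its reverse complement CACGTGA, which contains the shorter one, was present in the same 7 genes, against 4.49% of all symbols. The full palindrome TCACGTGA was present in 4 of the 23 (17.4%), namely CTSA, GAA, LAMP1 and MCOLN1, against 1.18% of all symbols. A match describes the letters of a window and does not show that a factor bound there. For each of the 7 genes, a stretch upstream of the start with matches is printed 5′ to 3′ on the strand of the gene, with the matching letters in capitals.
LAMP1: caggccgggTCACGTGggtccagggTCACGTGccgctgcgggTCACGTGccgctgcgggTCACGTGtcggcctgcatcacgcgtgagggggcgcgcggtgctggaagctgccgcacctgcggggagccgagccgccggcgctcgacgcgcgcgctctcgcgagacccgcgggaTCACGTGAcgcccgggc
MCOLN1: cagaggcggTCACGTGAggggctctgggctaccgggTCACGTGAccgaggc
GAA: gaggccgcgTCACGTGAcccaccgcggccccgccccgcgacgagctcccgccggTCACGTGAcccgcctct
CTSA: gTCACGTGgcgccggagtTCACGTGAc
CTSD: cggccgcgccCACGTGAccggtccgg
CTSF: atataacaagCACGTGAtagaggtca
NEU1: gctgcgtgaTCACGTGggaggagatg

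The LAMP1 stretch (chr13:113297037-113297226, plus strand) ran from 202 to 12 bases before the start and held 5 copies of CACGTG. In MCOLN1 (chr19:7522573-7522623, plus strand) and GAA (chr17:80101495-80101565, plus strand), 2 copies of the full palindrome lay within 86 bases of the start. The CTSA stretch (chr20:45891291-45891317, plus strand) held 2 copies of the 7-letter form, 1 of them extended to the palindrome. CTSD (chr11:1763959-1763984, minus strand), CTSF (chr11:66568714-66568739, minus strand) and NEU1 (chr6:31862932-31862957, minus strand) each showed 1 copy in the stretch printed, and a second upstream copy in CTSF is not printed. The start is that of the RefSeq window. By GENCODE release 29, all 27 bases of the CTSA stretch, all 26 of the CTSD stretch, 22 of the CTSF stretch and 10 of the GAA stretch lie in annotated exons of transcripts that start further upstream. Of these 7 genes, GAA was called higher in SW1990 cells, and LAMP1 did not pass the test between the lines. CTSA, CTSD, CTSF, MCOLN1 and NEU1 were called higher in PANC-1 cells. Among all 28 members tested between the lines, 5 were called higher and 13 lower in SW1990 cells. A link between the E-boxes and these differences was not tested.

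Levels were compared between genes in FPKM, the deposited value scaled to transcript length and library size. PSAP, the precursor of the saposins that help enzymes reach sphingolipids, was the most abundant of the 29 transcripts in every library (ENSG00000197746, chr10:71816298-71851375, minus strand). Its level was 104 FPKM in unirradiated and 128 FPKM in irradiated SW1990 cells, and 527 and 621 FPKM in PANC-1 cells. CTSD, an aspartic protease of the lumen (ENSG00000117984, chr11:1752752-1764573, minus strand), followed among the PANC-1 libraries with 213 and 261 FPKM. In SW1990 cells the CTSD level was 75.7 and 117 FPKM, close to NPC2 with 89.6 and 103 FPKM. NPC2 binds cholesterol in the lumen and hands it to the membrane protein NPC1. NPC2 was above CTSD in the unirradiated and below it in the irradiated SW1990 library. CTSB, a cysteine protease, lay between 63.4 and 75.2 FPKM in the 4 libraries, and LAMP1, a major glycoprotein of the lysosomal membrane, between 49.98 and 67.6 FPKM.

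The lowest levels were those of TFEB and of a cathepsin of immune cells. CTSS, the cysteine protease of antigen-presenting cells, had 7 and 4 counts in SW1990 cells and 2 and 14 counts in PANC-1 cells, and it stayed under 1 FPKM in every library. TFEB reached 0.614 and 0.237 FPKM in SW1990 cells, and 2.08 and 2.54 FPKM in PANC-1 cells. Its relative TFE3 was expressed at 17.9 and 20.6 FPKM in SW1990 cells and 25.9 and 20.7 FPKM in PANC-1 cells. TFE3 was thus above TFEB in each library. Between 27 and 28 of the 29 genes reached 1 FPKM in a library, and between 22 and 24 reached 10 FPKM.

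**Figure D1:**
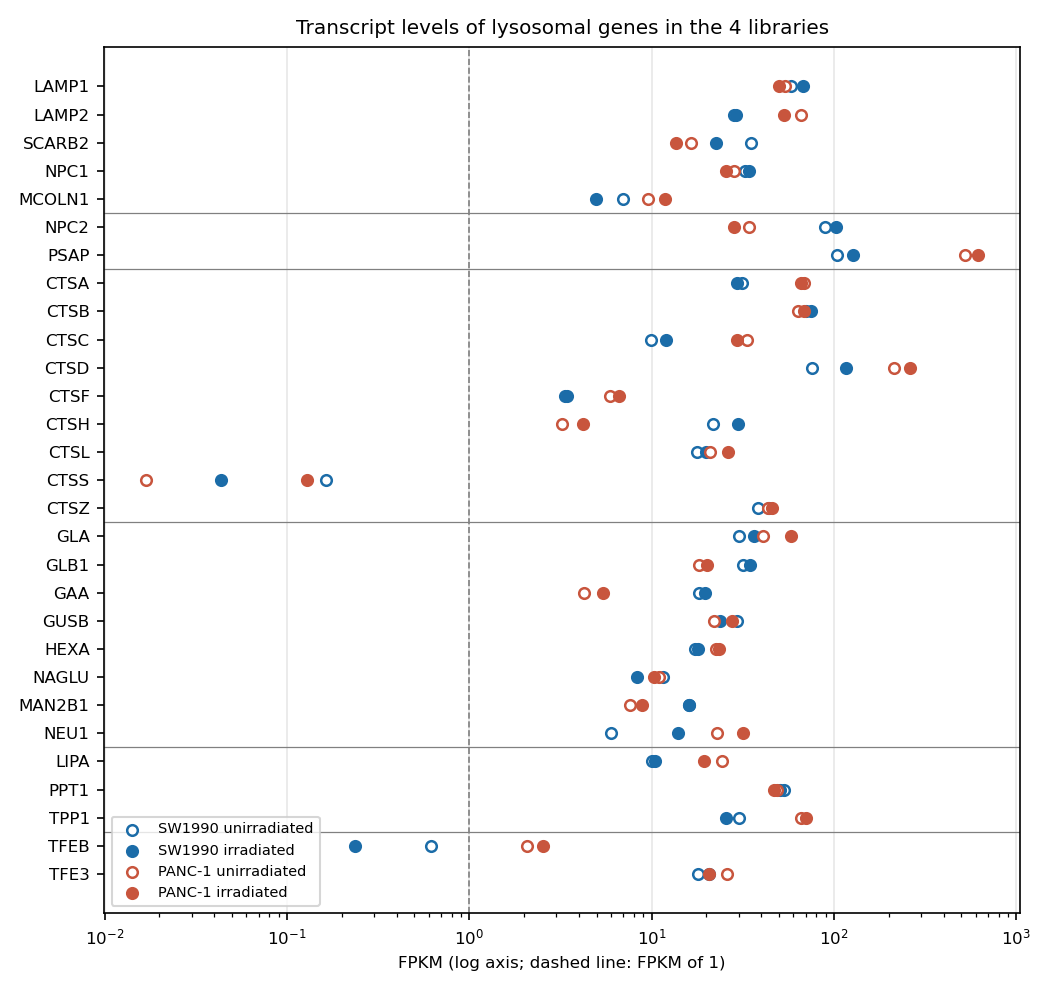
Level of each of the 29 transcripts in FPKM on a log axis, with 1 point per library, open for unirradiated and filled for irradiated cells, and horizontal lines between roles. PSAP lies furthest to the right in all 4 libraries, from 104 to 621 FPKM, and CTSS lies left of the dashed line at 1 FPKM in all 4.

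The 29 genes together took a larger share of the counts in PANC-1 than in SW1990 cells. The share was 0.223% in unirradiated SW1990 cells (95% Wilson interval 0.220% to 0.225%) and 0.236% in irradiated SW1990 cells (0.234% to 0.238%). In PANC-1 cells it was 0.379% without radiation (0.376% to 0.381%) and 0.4002% after 10 Gy (0.397% to 0.403%). These intervals cover counting error only. PSAP alone made up 12.6% and 14.1% of the members' counts in SW1990 cells, and 33.6% and 36.4% in PANC-1 cells. Without PSAP, the shares of all counts were 0.195% and 0.203% in SW1990 cells and 0.251% and 0.255% in PANC-1 cells.

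The lines were compared with edgeR's quasi-likelihood test on all 4 libraries, with treatment as a covariate and Benjamini-Hochberg adjustment over 18180 genes. A gene's own spread in this fit is how far its line difference varied between the unirradiated and the irradiated pair, with 1 residual degree of freedom. The fit draws that spread toward a prior spread shared by all genes, so the standard errors and adjusted p-values rest partly on other genes. Neither is a spread between repeat cultures. Among the 28 genes tested (all but CTSS), 5 were higher in SW1990 cells and 13 were lower at an adjusted p under 0.05. Of all genes, 21.4% were called higher and 22.2% lower. The median log2 ratio of SW1990 over PANC-1 was -0.43 over the 28 genes, and close to 0 over all genes tested. From scaled counts, both SW1990 libraries lay above both PANC-1 libraries for 6 of the 28 genes, and below them for 16. Over all genes these shares were 38.4% and 38.3%. From FPKM, LAMP1, NPC1, CTSB and PPT1 also lay above, CTSL lay below and CTSZ overlapped. PPT1, which lay below by counts, had 53.5 and 50.5 FPKM in SW1990 and 48.7 and 47.1 FPKM in PANC-1 cells. In a bulk sample, fewer cells of a kind and less RNA per cell cannot be told apart.

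PSAP showed the smallest adjusted p among the members. It had 5016 and 6090 counts in the SW1990 libraries against 29698 and 29179 in the PANC-1 libraries, and the log2 ratio was -2.31 ± 0.14 (SE, 2 libraries per line, edgeR quasi-likelihood adjusted p = 0.0011). NPC2, its neighbour in function, went the other way, with 1612 and 1885 counts in SW1990 cells and 863 and 647 in PANC-1 cells. The NPC2 log2 ratio was 1.33 ± 0.19 (SE, edgeR adjusted p = 0.00731). The lumenal lipid binding proteins were thus divided between the lines, with PSAP higher in PANC-1 and NPC2 higher in SW1990 cells.

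Among the cathepsins, 4 were lower and 1 was higher in SW1990 cells. CTSC, the dipeptidyl peptidase that activates serine proteases of granules, was expressed at 9.98 and 12.04 FPKM in SW1990 and 33.6 and 29.4 FPKM in PANC-1 cells, a log2 ratio of -1.91 ± 0.15 from the counts (SE, edgeR adjusted p = 0.00181). The log2 ratio of CTSD was -1.65 ± 0.15 (SE, edgeR adjusted p = 0.00231). CTSA, the carboxypeptidase that protects the enzymes NEU1 and GLB1 in a complex, had 1091 and 1031 counts in SW1990 and 3169 and 2530 counts in PANC-1 cells. Its log2 ratio was -1.31 ± 0.14 (SE, edgeR adjusted p = 0.00363). CTSF was lower by a smaller margin and called with an adjusted p of 0.0426 in the edgeR fit. CTSH, an aminopeptidase also found in lamellar bodies of the lung (ENSG00000103811, chr15:78921058-78949574, minus strand), was the exception. It had 807 and 757 counts in SW1990 cells and 180 and 194 in PANC-1 cells. The log2 ratio of CTSH was 2.17 ± 0.20 (SE, edgeR adjusted p = 0.00255), and the libraries of the lines did not overlap. CTSB, CTSL and CTSZ did not pass the test, with log2 ratios of -0.10, -0.29 and -0.33.

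Glycosidases were also divided. GAA, the acid alpha-glucosidase that degrades glycogen (ENSG00000171298, chr17:80101556-80119879, plus strand), was expressed at 18.3 and 19.6 FPKM in SW1990 cells and 4.24 and 5.42 FPKM in PANC-1 cells. The log2 ratio of its counts was 1.79 ± 0.17 (SE, edgeR adjusted p = 0.00257). MAN2B1, an alpha-mannosidase, was higher in SW1990 cells too, with 817 and 993 counts against 605 and 506 and a log2 ratio of 0.81 ± 0.19 (SE, edgeR adjusted p = 0.0263). NEU1, the sialidase that removes terminal sialic acid (ENSG00000204386, chr6:31857659-31862906, minus strand), was lower in SW1990 cells. It had 299 and 740 counts there and 1452 and 1735 in PANC-1 cells, a log2 ratio of -1.64 ± 0.27 (SE, edgeR adjusted p = 0.0105). This ratio changed between the pairs, from -2.12 without radiation to -1.18 after 10 Gy. HEXA, the alpha chain of beta-hexosaminidase, had a log2 ratio of -0.84 ± 0.16 (SE, edgeR adjusted p = 0.0147). GLA, which removes terminal alpha-galactose from glycolipids, had a log2 ratio of -0.69 ± 0.15 (SE, edgeR adjusted p = 0.0214). GLB1, the beta-galactosidase whose activity is used to stain senescent cells, had 1115 and 1449 counts in SW1990 and 959 and 768 in PANC-1 cells and missed the threshold (log2 ratio 0.67 ± 0.20, edgeR adjusted p = 0.0508). GUSB and NAGLU did not pass, with log2 ratios of -0.05 and -0.28.

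At the lysosomal membrane, LAMP2 and SCARB2 differed between the lines in opposite directions. LAMP2, which also serves chaperone-mediated autophagy, had 1504 and 1589 counts in SW1990 cells and 4690 and 3580 counts in PANC-1 cells (log2 ratio -1.299 ± 0.158, SE, edgeR adjusted p = 0.00484). SCARB2, or LIMP-2, carries beta-glucocerebrosidase to the lysosome (ENSG00000138760, chr4:76158733-76234536, minus strand). Its counts were 2824 and 1774 in SW1990 and 1623 and 1014 in PANC-1 cells, with a log2 ratio of 0.91 ± 0.14 (SE, edgeR adjusted p = 0.00895). The calcium channel MCOLN1 was lower in SW1990 cells, with 225 and 203 counts against 471 and 442 (log2 ratio -0.99 ± 0.21, SE, edgeR adjusted p = 0.0217). LAMP1 and NPC1 did not pass, with log2 ratios of 0.16 and 0.02.

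Of the remaining hydrolases, the peptidase TPP1 and the acid lipase LIPA were lower in SW1990 cells. TPP1 was expressed at 30.3 and 25.7 FPKM there and at 65.8 and 70.5 FPKM in PANC-1 cells, with a log2 ratio of counts of -1.52 ± 0.14 (SE, edgeR adjusted p = 0.00235). LIPA, which frees cholesterol and fatty acids from lipoproteins, had 569 and 628 counts in SW1990 and 1924 and 1303 in PANC-1 cells (log2 ratio -1.298 ± 0.203, SE, edgeR adjusted p = 0.00928). The thioesterase PPT1 had a log2 ratio of -0.06 and did not pass. TFEB (ENSG00000112561, chr6:41683978-41736259, minus strand) had 21 and 14 counts in SW1990 cells and 129 and 107 in PANC-1 cells, and its log2 ratio of -2.65 ± 0.39 was the lowest of the 28 (SE, edgeR adjusted p = 0.00809). TFE3 had a log2 ratio of -0.53 and did not pass (edgeR adjusted p = 0.0866).

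Not every call held when a library was left out. Of the 18 genes called, 12 were called without each library in turn, with line as the only term in the fit. CTSF lost its call without each of the 4. NEU1 lost its call without either PANC-1 library, and SCARB2 lost its call without the unirradiated SW1990 library or either PANC-1 library. GLA lost it without either SW1990 library or the irradiated PANC-1 library. MAN2B1 lost it without the irradiated SW1990 or the irradiated PANC-1 library, and MCOLN1 without the irradiated SW1990 library. GLB1 was called without the unirradiated SW1990 library, and TFE3 without the irradiated PANC-1 library.

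**Figure D2:**
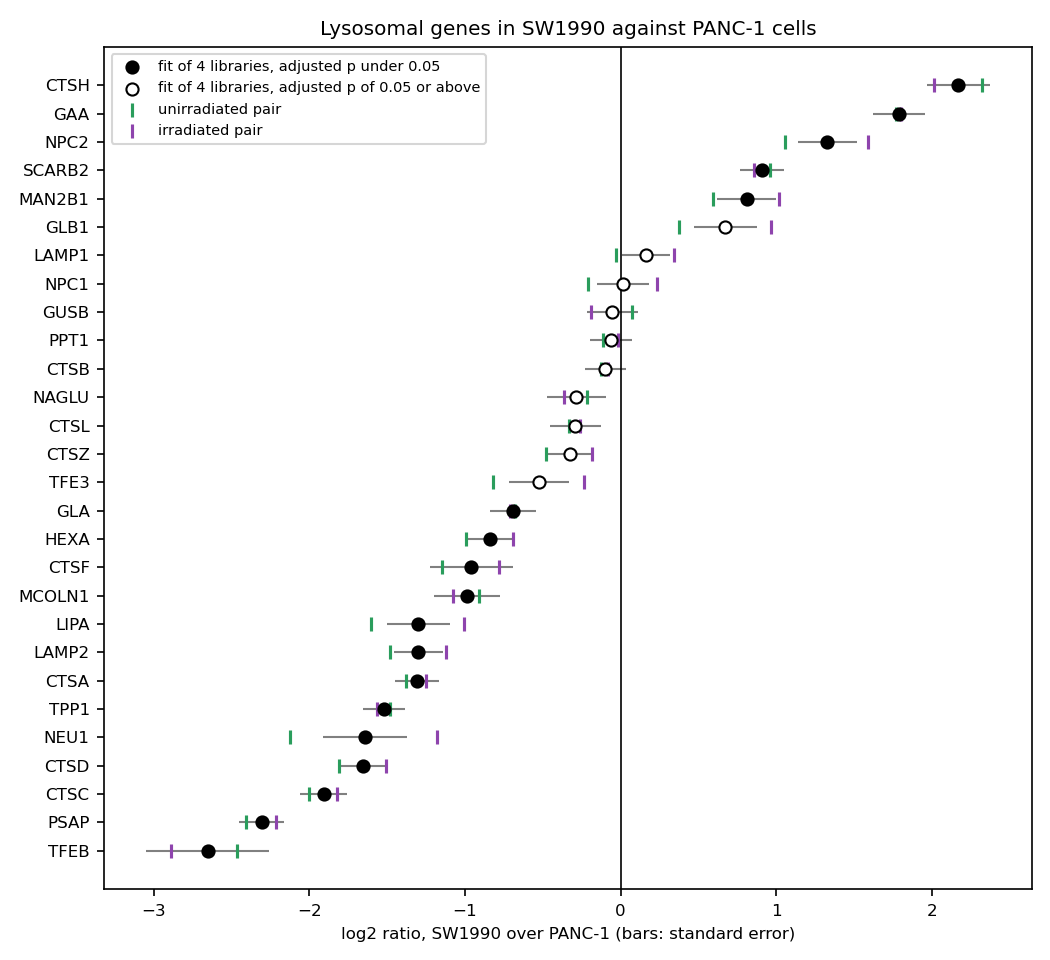
log2 ratio of SW1990 over PANC-1 for the 28 genes tested, with the fit of 4 libraries as circles, filled at an adjusted p under 0.05, standard errors as bars and the pairs as ticks. The ratios run from -2.65 for TFEB to 2.17 for CTSH, and the ticks of NEU1 lie furthest apart of those called, at -2.12 and -1.18.

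Markers of cell types were compared with the labelled identity of the lines. Of 6 epithelial markers, 6 reached 1 FPKM in both SW1990 libraries and in irradiated PANC-1 cells, and 5 in unirradiated PANC-1 cells. Their summed level was 2883 and 3720 FPKM in SW1990 and 1409 and 1639 FPKM in PANC-1 cells, with the keratin KRT8 the most abundant. EPCAM had 7348 and 7552 counts in SW1990 cells but 108 and 113 in PANC-1 cells, and CDH1, or E-cadherin, had 9906 and 14345 against 59 and 65. Of 6 leukocyte markers, PTPRC, LYZ and CD3E had at most 2 counts in any library. Their summed level was 1.77 and 2.25 FPKM in SW1990 and 19.5 and 15.2 FPKM in PANC-1 cells, where CD68 made up most of it. CD68 is itself a protein of late endosomes and lysosomes, and had 31 and 37 counts in SW1990 and 967 and 583 counts in PANC-1 cells. Among 4 fibroblast markers, COL1A2 and DCN were at 0 in all 4 libraries, while COL1A1 had 103 and 165 counts in SW1990 and 965 and 1315 in PANC-1 cells. The summed fibroblast level was 1.40 and 2.85 FPKM in SW1990 and 8.46 and 11.01 FPKM in PANC-1 cells. None of 3 endothelial markers reached 1 FPKM. The part of the epithelial differences in the lysosomal ones was not tested.

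The question of the radiation comparison was how the cells' transcripts differed after 10 Gy, in the experiment that searched for signals of dying tumor cells. With 1 library per group, each line gives a difference between 2 libraries without a replicate check. Folds were taken from counts with TMM-scaled library sizes, intervals are exact Clopper-Pearson intervals at 95% for counting error only, and a gene was called at a q-value under 0.001 and a fold above 2 in the test of reads (edgeR's exact test at dispersion 0). That test compares the libraries, not the conditions.

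In SW1990 cells, 1 of the 27 genes tested was called higher and 0 were called lower. Of 15731 genes tested, 2.26% were called higher and 1.88% lower. CTSS and TFEB were under 1 FPKM in both libraries and were not tested. The gene called was NEU1, with 299 counts before and 740 counts after 10 Gy (6.01 and 14.0 FPKM). Its level was 2.46 times as high after radiation (log2 fold change 1.301, 95% counting interval 1.105 to 1.499). The call of NEU1 was lost when a coefficient of variation of 0.2 between repeat libraries was assumed. At a fold limit of 1.5, SCARB2 was added as lower, from 2824 to 1774 counts (log2 fold change -0.68, interval -0.76 to -0.59). At that limit 5.21% of all genes were called higher and 4.05% lower. The other 25 genes lay within 1.5-fold.

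Most of the smaller differences in SW1990 cells were upward. Of the 27 genes, 19 were higher and 8 lower, with a median log2 fold change of 0.14 against -0.01 over all genes tested. For 14 of the 27 genes the whole counting interval lay above 0, and for 3 below it, against 25.2% and 23.5% of all genes tested. These intervals narrow with the counts, so abundant genes leave 0 more readily. CTSD was higher with 2543 and 3332 counts (0.38, interval 0.31 to 0.46), and GLB1 with 1115 and 1449 counts (0.37, interval 0.26 to 0.49). PSAP was higher by 20.8% and CTSL by 24.7%. The glycosidases NAGLU, which degrades heparan sulfate, and GUSB, the beta-glucuronidase, lay below 0. NAGLU had 452 and 325 counts (-0.48, interval -0.69 to -0.27) and GUSB had 996 and 808 (-0.31, interval -0.44 to -0.17). Among the glycosidases 6 of 8 were higher, and among the cathepsins tested 6 of 8, against 7762 of 15731 over all genes tested. Epithelial markers were also higher in the irradiated SW1990 library, 6 of 6 with a median log2 fold change of 0.36. The fibroblast marker COL1A1 was called higher at 1.5-fold (0.67). The part of these markers in the result was not tested.

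In PANC-1 cells, 0 of the 28 genes tested were called in either direction, at a fold limit of 2 or of 1.5. Of 15159 genes tested, 2.37% were called higher and 2.32% lower at 2-fold, and 5.77% and 5.94% at 1.5-fold. From counts, the lowest member was again SCARB2, with 1623 and 1014 counts (16.5 and 13.6 FPKM) and a log2 fold change of -0.55 (interval -0.66 to -0.43). LIPA followed with 1924 and 1303 counts (-0.43, interval -0.53 to -0.33) and TFE3 with 2405 and 1634 counts (-0.43, interval -0.52 to -0.34). NPC1 had 2830 and 2040 counts (-0.34, interval -0.42 to -0.26). The highest member by counts was NEU1, with 1452 and 1735 counts (0.39, interval 0.29 to 0.49), next to GLA with 1263 and 1482 counts (0.36, interval 0.25 to 0.47). By FPKM GLA was the highest at 0.52, with NEU1 at 0.48. Among the 5 membrane proteins, 4 were lower and MCOLN1 was at 0.04, while 7838 of 15159 were lower over all genes tested. CTSS, not tested, had 2 and 14 counts.

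The balance of directions in PANC-1 cells depended on the measure. From counts, 10 of the 28 genes were higher and 18 lower, with a median log2 fold change of -0.10 against -0.02 over all genes tested. The counting interval lay above 0 for 7 and below 0 for 12, against 26% and 30.5% of all genes. From the FPKM values of the same libraries, 17 were higher and the median was 0.11, against 0.066 over all genes tested. CTSF, CTSZ, GLB1, GUSB, HEXA, MAN2B1 and TFEB had opposite signs by the 2 measures, and none of these 7 exceeded 1.5-fold by either. In SW1990 cells the measures gave the same sign for 26 of 27 genes, and CTSH was the exception with -0.10 from counts and 0.44 from FPKM. Sizes differed more, since by FPKM the log2 fold change was 0.13 for GLB1, 0.15 for CTSL, 0.099 for GAA and 0.0035 for MAN2B1, against 0.37, 0.32, 0.29 and 0.27 by counts. NEU1 and SCARB2 kept their signs by both measures in both lines, but SCARB2 in PANC-1 cells went from -0.55 by counts to -0.28 by FPKM, where TFE3, LAMP2 and LIPA lay lower at -0.32, -0.32 and -0.31.

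**Figure D3:**
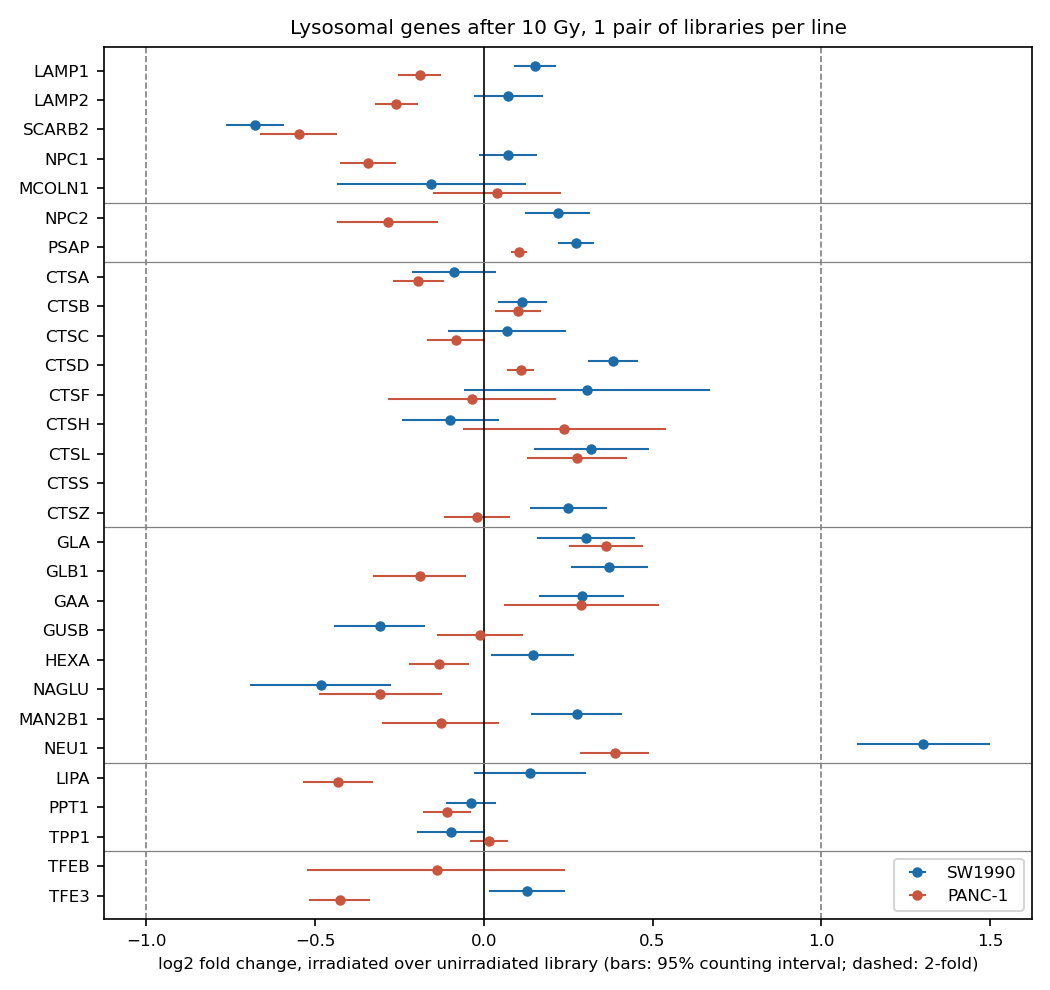
log2 fold change of irradiated over unirradiated cells from counts, with 95% counting intervals as bars, 1 point per line and gene, and dashed lines at 2-fold. NEU1 in SW1990 cells, at 1.301, is the point past the dashed lines, and SCARB2 lies below 0 in both lines, at -0.68 and -0.55.

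**Figure D4:**
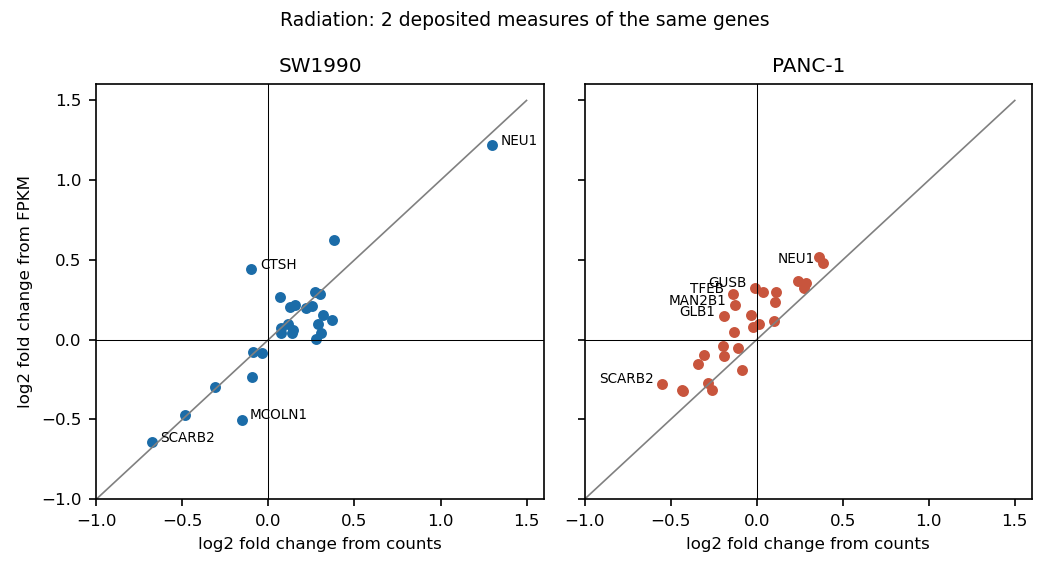
log2 fold change after 10 Gy from counts on the horizontal axis and from FPKM on the vertical axis, 1 point per gene tested, with the line of equal values. In PANC-1 cells 7 of 28 points have opposite signs by the 2 measures, and in SW1990 cells 1 of 27, CTSH.

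Side by side and from counts, 7 of the 27 genes tested in both lines were higher after 10 Gy in both, and 5 were lower in both. The 7 were PSAP, CTSB, CTSD, CTSL, GLA, GAA and NEU1, and the 5 were SCARB2, CTSA, GUSB, NAGLU and PPT1. Another 12 genes were higher in SW1990 and lower in PANC-1 cells, 5 of them with both counting intervals clear of 0 (7.77% of all genes tested in both lines), and 3 were lower in SW1990 and higher in PANC-1 cells. From FPKM, 13 genes were higher in both lines, with CTSF, CTSH, CTSZ, GLB1, HEXA and MAN2B1 added to the 7, and 4 were lower in both, without GUSB. By that measure 7 genes were higher in SW1990 and lower in PANC-1 cells, namely LAMP1, LAMP2, NPC1, NPC2, CTSC, LIPA and TFE3, and 3 the reverse. GAA had log2 fold changes of 0.29 in each line by counts, and of 0.099 in SW1990 and 0.35 in PANC-1 cells by FPKM. By counts, NEU1 differed most among these 27 lysosomal genes, by 0.91 on the log2 scale (counting interval 0.70 to 1.13). LIPA differed by 0.57, GLB1 by 0.56, TFE3 by 0.55 and NPC2 by 0.50. From FPKM these differences were 0.74 for NEU1, 0.36 for LIPA, -0.021 for GLB1, 0.53 for TFE3 and 0.47 for NPC2, and MCOLN1 differed most, by -0.80. Without replicates, none of these differences between the lines was tested.

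With the lines as blocks, edgeR's quasi-likelihood test over the 4 libraries called 0 of the 28 genes for radiation, and 0% of all 18180 genes (smallest edgeR adjusted p among the members 0.936). At an unadjusted p under 0.05 in the edgeR test there were 833 genes, or 4.58% of all genes, a share that such a limit passes without any effect. DESeq2's Wald test called 39 genes at an adjusted p under 0.05. Of the members, SCARB2 (log2 fold change -0.60 ± 0.14, SE, edgeR unadjusted p = 0.00933) and NEU1 (0.85 ± 0.27, SE, edgeR unadjusted p = 0.0268) were under that unadjusted limit. The fit has 1 residual degree of freedom.

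A further 7 gene lists of the lysosome and its control gave the setting of these differences. Among 35 other lysosomal hydrolases, 1 of 32 tested was called higher in irradiated SW1990 cells, and 2 of 30 in irradiated PANC-1 cells. For all genes the shares called higher were 2.26% and 2.37%, and those called lower 1.88% and 2.32%. The gene in SW1990 cells was CTSO, a cysteine protease, with 24 and 67 counts (log2 fold change 1.47, interval 0.78 to 2.21). CTSO met the filter of 1 FPKM only through the irradiated library (0.361 and 1.01 FPKM), so its direction was fixed by the filter. In PANC-1 cells they were NAAA, an acid amidase that degrades fatty acid ethanolamides, with 60 and 131 counts (1.26, interval 0.81 to 1.72), and the carboxypeptidase PRCP with 591 and 1111 counts (1.04, interval 0.90 to 1.19), where FPKM gave 0.54, under 2-fold. Of 28 other membrane proteins and transporters, LAMP3 alone was called, with 121 and 38 counts in PANC-1 cells (-1.54, interval -2.11 to -1.004). LAMP3 met that filter only through the unirradiated library (1.29 and 0.444 FPKM), which likewise fixed its direction. Among 25 V-ATPase subunits, ATP6V0E2 was called in PANC-1 cells, with 524 and 1520 counts (1.67, interval 1.52 to 1.81). In SW1990 cells it had 216 and 360 counts (0.73, interval 0.48 to 0.98).

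Of 31 autophagy genes, 1 was called higher and 1 lower in SW1990 cells, and 1 higher and 2 lower in PANC-1 cells, beside the same shares for all genes. MAP1LC3A, which encodes an LC3 protein of the autophagosome membrane, was called higher in both lines. It had 15 and 45 counts in SW1990 (1.58, interval 0.71 to 2.53) and 51 and 105 counts in PANC-1 cells (1.17, interval 0.68 to 1.68). In SW1990 cells MAP1LC3A met the filter of 1 FPKM only through the irradiated library (0.451 and 1.89 FPKM), so its direction there was fixed by the filter. GABARAP, of the same protein family, had 617 and 256 counts in SW1990 cells (-1.28, interval -1.49 to -1.06), but -0.48 from FPKM, which is under 2-fold. MAP1LC3B, the LC3 form commonly used as a marker, had 3639 and 1007 counts in PANC-1 cells (-1.72, interval -1.83 to -1.62) and 836 and 627 in SW1990 cells (-0.42, interval -0.57 to -0.27). CALCOCO2, an autophagy receptor, had 3573 and 1431 counts in PANC-1 cells (-1.19, interval -1.28 to -1.10). Among 23 genes that control TFEB and mTORC1, the GTPase gene RRAGB was called lower in SW1990 cells, with 111 and 53 counts (-1.07, interval -1.57 to -0.59). Of 12 cathepsin inhibitors, CST7 was called in SW1990 cells with 34 and 86 counts, and had 0 counts in PANC-1 cells. None of 26 sorting genes was called. The pair with the largest mean differences were GGA2, a sorting adaptor, with 1343 and 2200 counts in PANC-1 cells (0.84) and 1704 and 1870 in SW1990 cells (0.13), and AP1S2, an adaptor subunit, at -0.62 in SW1990 and -0.56 in PANC-1 cells. By FPKM, AP1S2 turned to 0.78 in PANC-1 cells. AP1S1, named after its values were seen, had 1739 and 878 counts in SW1990 cells (-0.99) and a log2 fold change of 0.42 in PANC-1 cells.

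Between the lines, counts of genes called by the edgeR fit are given for each list, beside 21.4% higher and 22.2% lower of all genes, and differences between lists were not tested. Of 32 other hydrolases tested, 5 were higher and 9 lower in SW1990 cells, and of 28 other membrane proteins 1 was higher and 12 lower. IDS, which removes sulfate from heparan and dermatan sulfate, had 846 and 646 counts in SW1990 and 7140 and 6356 in PANC-1 cells (log2 ratio -3.08 ± 0.17, SE, edgeR adjusted p = 0.000975). CPVL, a carboxypeptidase, had 307 and 293 counts in SW1990 and 0 in both PANC-1 libraries. OSTM1, a partner of a lysosomal chloride transporter, had a log2 ratio of -2.91 ± 0.18 (SE), CD164 one of -1.25 ± 0.14 (SE) and TMEM192 one of 1.67 ± 0.17 (SE). Of 21 V-ATPase subunits tested, 3 were higher and 4 lower. ATP6V1C2 had 470 and 473 counts in SW1990 and 0 in both PANC-1 libraries, while ATP6V1B2 had a log2 ratio of 1.19 ± 0.15 (SE) and ATP6AP1 one of -1.39 ± 0.17 (SE).

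Sorting genes were evenly divided, with 5 higher and 5 lower of 26. AP1M2, the adaptor subunit of polarised epithelial cells, had 1749 and 1703 counts in SW1990 and 85 and 81 in PANC-1 cells (log2 ratio 4.48 ± 0.18, SE, edgeR adjusted p = 0.000804). The sorting receptors SORT1 and SORL1 lay on opposite sides, at 1.92 ± 0.15 and -1.64 ± 0.13 (SE). Of 22 genes that control TFEB and mTORC1, 1 was higher and 9 were lower in SW1990 cells. Among these 9 were RRAGB (-2.40 ± 0.31, SE), FNIP2 (-1.32 ± 0.18, SE) and FLCN (-1.16 ± 0.14, SE), which act on the same branch of mTORC1 signalling to TFEB. Of 31 autophagy genes, 1 was higher and 12 were lower in SW1990 cells. The kinase ULK1, which starts autophagosome formation, had 421 and 365 counts in SW1990 and 5820 and 2872 in PANC-1 cells (log2 ratio -3.28 ± 0.23, SE, edgeR adjusted p = 0.00139), its relative ULK2 a log2 ratio of -2.87 ± 0.30 (SE), and ATG9A one of -1.32 ± 0.17 (SE). Of 12 cathepsin inhibitors, 6 were tested. In SW1990 cells 4 were called higher, CST6 and CST7 among them, and 0 lower. SERPINB1 had 3266 and 3057 counts there and 373 and 449 in PANC-1 cells (log2 ratio 3.05 ± 0.19, SE, edgeR adjusted p = 0.00114). CST6 and CST7 were at 0 counts in PANC-1 cells and, like CPVL and ATP6V1C2 in their lists, entered the fit through the SW1990 libraries alone, so their direction was fixed by the filter.

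Several of the 29 genes overlap other genes, and whether the counting used the strand of the reads is not given in the sources used here, so their counts are less certain. On the same strand, CTSD overlaps AC068580.4 (up to 1518 counts in a library), MCOLN1 overlaps PNPLA6 (up to 2198) and GLB1 overlaps TMPPE (up to 384). On the opposite strand, NPC1 overlaps C18orf8 (up to 1136) and GLA overlaps RPL36A-HNRNPH2 (up to 974). LIPA spans IFIT1, IFIT2 and IFIT3, with up to 281 counts in a library. LIPA also overlaps AL353751.1 on the opposite strand (up to 209 counts). Also on the opposite strand, NPC2 overlaps ISCA2 (up to 140 counts) and SCARB2 overlaps FAM47E (up to 118 counts). NEU1, PSAP, CTSH and GAA overlap no other gene with at least 10 counts in a library on either strand.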

How the data were processed

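Per the submitters' processing notes and methods, the authors trimmed reads with Trimmomatic 0.36, mapped them with HISAT2 2.0 and quantified genes with StringTie 1.3.3b. For each gene and library they deposited a raw read count and an FPKM value. The counting tool is not given in the sources used here. The table has 59263 rows. StringTie loci without a gene identifier (1089 rows, between 0.453% and 0.635% of a library's counts) entered neither library sizes nor tests. Of the 58174 identifiers, 57836 were found in GENCODE release 29 on GRCh38, 96.8% with unchanged coordinates.

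The radiation test took genes that reached 1 FPKM in either library of a line. Counts were tested with edgeR 4.0.16 in R 4.3.3, with TMM scaling and, for the fits of 4 libraries, genes kept by filterByExpr. DESeq2 1.42.0 served as an alternative. The tests were tested on simulated data. At 3 counts, the floor used here, a gene had between 0.129 and 0.168 CPM. Members, lists and rules were chosen with earlier results of these data known. All members are described, and of each other list up to 3 genes called at 2-fold in either line with the largest fold (if none, the 2 with the largest mean change) and up to 3 with the smallest adjusted p between the lines; 1 gene that this rule names is not reported here. Library scaling, filters, fold limits, an assumed spread and the use of FPKM were varied.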

Additional observations from a re-analysis of the deposited data

Results flagged for a closer look

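In 5 of the 27 genes tested in both lines, the irradiated library lay above the unirradiated one in SW1990 cells and below it in PANC-1 cells, with both counting intervals clear of 0. Over all genes tested in both lines, 7.77% showed this pattern, and the intervals narrow with the counts. The log2 fold change in SW1990 minus that in PANC-1 cells was 0.56 for GLB1, 0.55 for TFE3, 0.50 for NPC2, 0.34 for LAMP1 and 0.28 for HEXA. None of these differences was tested, since each group has 1 library. From FPKM values, GLB1 and HEXA were higher after 10 Gy in both lines, with differences of -0.021 and 0.014, while LAMP1, NPC2 and TFE3 kept opposite signs. An unnamed StringTie locus, left out of the comparisons, overlaps LIPA and reached 148 counts in a library.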

How the results depend on the processing

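The labels give no replicate numbers to pair samples by, and the fit of radiation over both lines already has the line as a block. The call of NEU1 in SW1990 cells was lost when a coefficient of variation of 0.2 or 0.4 between repeat libraries was assumed, leaving 0 members called at either value. Of all genes, 99 and 15 were then called in SW1990 and 103 and 10 in PANC-1 cells. At a fold limit of 1.5, 1456 genes and 2 members were called in SW1990 cells and 1776 genes in PANC-1 cells. An FPKM minimum of 5 left 305 and 318 genes called. Folds from FPKM were counted by the 2-fold limit alone, without the q-value, and 1662 and 1540 genes exceeded it. Those 2 numbers are thus not calls of the test of reads. The PANC-1 median reversed to 0.11 from FPKM and 0.108 from log2(FPKM + 1), with 17 genes higher by each, and no scaling moved the median of all genes by over 0.1. The cause was not tested. Between the lines, the unirradiated pair alone gave a median of -0.58. In the irradiated pair the median lay between the values of NAGLU (-0.36) and CTSL (-0.26). Leaving out each library in turn (chosen after seeing the data, with line as the only term) gave 14 to 16 members called, 6329 to 6785 genes called and medians of -0.54 to -0.36. GLB1 was called with DESeq2 size factors or without the treatment covariate, MAN2B1 and CTSF lost their calls without a filter, and MCOLN1 and CTSF with DESeq2's Wald test. That test called 39 genes for radiation over both lines. Without PSAP, the summed shares were 0.195%, 0.203%, 0.251% and 0.255%. Fold changes of TFEB and CTSS are limited by their counts.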
